A study of Mus musculus with 6 samples.

Results

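The respiratory chain subunits described here are the protein-coding genes of the deposited tables whose symbols begin with Ndufa, Ndufb, Ndufc, Ndufs or Ndufv followed by a number, with Sdha to Sdhd, Uqcr, Cox4 to Cox8 or Atp5, or with the mitochondrial prefix mt- and Nd, Co, Cytb or Atp. The rule uses the symbols and no measured value, though it was set with earlier results of these data known. The genes it finds numbered 90 of the 13970 genes listed. Of the 90, 79 were nuclear genes and 11 were genes of the mitochondrial genome. A ratio between extractions was given for 88 of them. The other two, mt-Co2 and mt-Nd3, were listed for the standard extraction alone.

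The RNA came from untreated primary astrocytes, a glial cell of the brain. Cultures were prepared from newborn mice of the strain C57BL/6JOlaHsd (P0 to P2), males and females pooled, and the sequenced RNA was that of the pellet of ribosomes and other heavy particles. The single contrast was between 2 ways of opening the cells, each with 3 libraries labelled batch A, B and C. In the standard extraction, cells were scraped, frozen as pellets and opened with 50 mM KCl, 1% Triton X-100 and 1% sodium deoxycholate. In the optimized extraction, cells were lysed on the plate in 2% of the mild detergent DDM with 200 mM KCl. Both buffers held 10 mM MgCl2, and lysate holding 12 µg of RNA was spun through 1 M sucrose. The comparison asks which RNAs each extraction brings into the heavy pellet.

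The respiratory chain sits in the inner mitochondrial membrane. Complex I (NADH dehydrogenase) and complex II (succinate dehydrogenase) pass electrons to ubiquinone, complex III passes them on to cytochrome c, complex IV (cytochrome c oxidase) hands them to oxygen, and complex V (ATP synthase) uses the proton gradient to make ATP. Most subunits are nuclear-encoded, translated on cytosolic ribosomes and imported, while a small set of hydrophobic subunits is encoded by mitochondrial DNA and translated on mitochondrial ribosomes inside the organelle. Complex II alone has no mitochondrially encoded subunit.

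Each value is 1 log2 ratio per gene, optimized over standard extraction, from the authors' deposited table, without an error and without values per library. Neither the depth of the libraries nor the spread among batches is therefore known, no gene was tested, and every difference below is a difference between deposited values. Nearly the whole table was shifted: its 13278 shared genes lay at a median log2 ratio of 1.09, with quartiles of 0.90 and 1.27, so each member is read against that median. A higher ratio in bulk RNA of the pellet cannot tell apart better recovery into the pellet, more RNA per cell and more cells of a kind. All 11 astrocyte markers were listed in both extractions, at log2 ratios of 0.61 to 1.11 in the authors' deposited table. Their median was 0.96. Of the markers of other cells, 6 of 6 fibroblast, 6 of 8 oligodendrocyte lineage, 5 of 7 neuron, 3 of 5 endothelial and 1 of 6 microglia genes were listed, either in both extractions or in 1. The fibroblast markers had a median log2 ratio of 0.65 (0.49 to 0.84), all under the median of the table. The 3 neuron markers with a ratio had a median of 0.72, and Syn1 and Syp were listed for the standard extraction alone. Medians were 0.81 for endothelial and 0.94 for oligodendrocyte lineage markers, and the single microglia marker was at 0.85 in the authors' deposited table. Every marker list, that of astrocytes included, thus had its median under that of the table. The part of such cells in the members' ratios was not tested.

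The coding sequences of the 3 highest nuclear subunits with at most 300 coding bases show how short they are (GENCODE M21, GRCm38, the assembly of mm10, with start and stop codons in capitals). Atp5e encodes the epsilon subunit of ATP synthase (159 coding bases, gene at chr2:174461072-174464105, minus strand). Cox6c (231 coding bases, gene at chr15:35925886-35938246, minus strand) and Cox7a1 (243 coding bases, gene at chr7:30184144-30186078, plus strand) encode small subunits of cytochrome c oxidase.
Atp5e: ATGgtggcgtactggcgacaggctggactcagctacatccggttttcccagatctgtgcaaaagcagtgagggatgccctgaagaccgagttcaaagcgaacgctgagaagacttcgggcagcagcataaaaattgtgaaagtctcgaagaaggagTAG
Cox6c: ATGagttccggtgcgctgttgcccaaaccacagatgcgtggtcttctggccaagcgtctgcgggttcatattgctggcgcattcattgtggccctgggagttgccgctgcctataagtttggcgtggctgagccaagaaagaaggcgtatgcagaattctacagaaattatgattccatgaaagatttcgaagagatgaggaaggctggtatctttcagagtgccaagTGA
Cox7a1: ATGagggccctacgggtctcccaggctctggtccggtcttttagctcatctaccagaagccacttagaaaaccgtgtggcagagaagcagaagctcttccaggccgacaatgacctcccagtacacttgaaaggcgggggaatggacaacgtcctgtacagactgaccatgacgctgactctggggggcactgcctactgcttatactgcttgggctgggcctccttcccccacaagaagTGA

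The nuclear subunits as a whole lay slightly above the table, and the mitochondrially encoded subunits below it, by amounts that depend on the processing. For the 79 nuclear genes the median log2 ratio was 1.16 (quartiles 1.05 and 1.39, range 0.69 to 1.88), a 2.23-fold higher value with the optimized extraction. Of the 79, 65 (82.3%) were at least 2-fold higher, against 63.0% of all shared genes, and 50 lay above the median of the table, against 50.0%. Above the upper quartile of all shared genes (25.0% of them by construction) lay 27 nuclear members (34.2%), and below the lower quartile (25.0%) lay 9. The 9 mitochondrially encoded genes with a ratio had a median of 0.95 (quartiles 0.62 and 1.19, range 0.50 to 1.23), 4 of them at least 2-fold higher. Of these 9, 4 lay above the median of the table, 4 lay below the lower quartile and 0 above the upper. The difference of the mitochondrial median from that of the table was -0.14. It was -0.017 without members that another gene overlaps on the same strand, which leaves only mt-Co1, mt-Cytb, mt-Nd5 and mt-Nd6 with a ratio. Any overlap counted, however short: mt-Nd1 was left out for chrM:3706-3707, mt-Nd2 for chrM:4950-4951 and mt-Nd4 for chrM:10167-10173. Nuclear and mitochondrial medians differed by 0.21, and by 0.021 when each gene was set against its coding length class. At least 1.5-fold higher values were given for 87 of 88 members, against 94.6% of all shared genes, and at least 3-fold higher values for 9, against 5.37%. Values at least 2-fold lower with the optimized extraction were given for 0 members, against 0.00753% of all shared genes, and the smallest member ratio was 0.50. After centring on the median of the table, 0 of 88 members lay at least 2-fold above it or below it, against 0.678% and 0.587% of all shared genes.

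**Figure D1:**
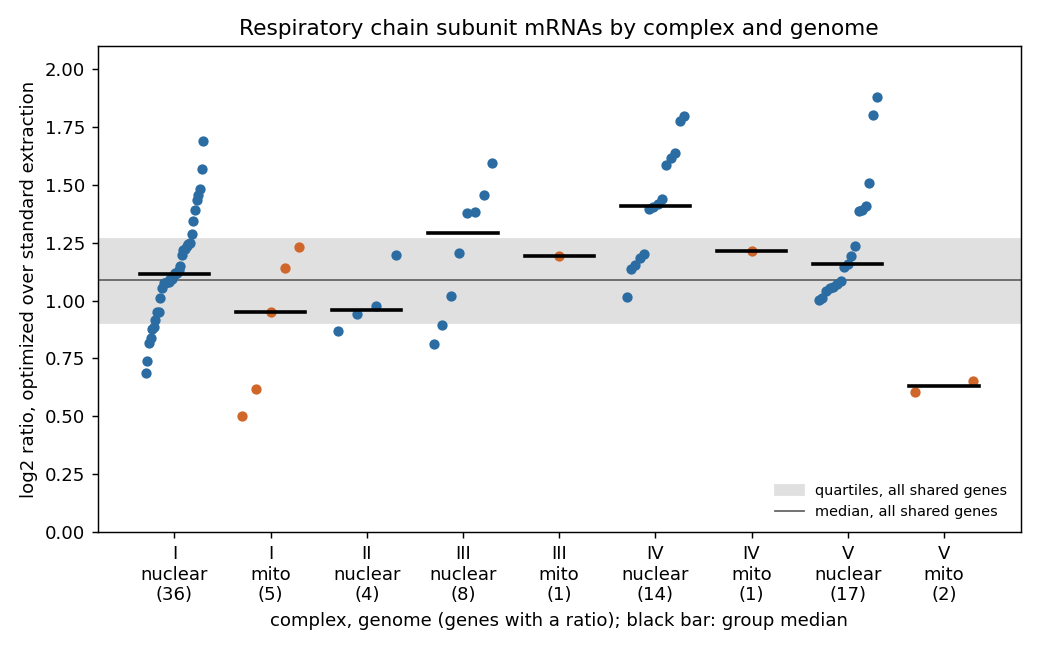
Log2 ratio (y axis, optimized over standard extraction) of each subunit gene with a ratio, by complex and genome (x axis, number of genes in brackets). Blue points are nuclear and orange points mitochondrial genes, black bars are group medians, and the grey line and band are the median (1.09) and quartiles of all shared genes. Nuclear complex IV genes have the highest group median (1.41), and the pair of mitochondrial complex V genes the lowest (0.63).

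By complex, the nuclear medians ran from 0.96 in complex II over 1.11 in complex I, 1.16 in complex V and 1.29 in complex III to 1.41 in complex IV. Complex I alone ranged from 0.69 to 1.69, wider than the medians differed, while complex II spanned less. The ranges of complexes I, III, IV and V overlapped, and the 4 genes of complex II (0.87 to 1.20) lay inside the range of complex I. At least 2-fold higher were 27 of 36 genes in complex I, 1 of 4 in complex II, 6 of 8 in complex III, and all 14 and 17 nuclear genes of complexes IV and V, against 63.0% of all shared genes. All nuclear genes of complex IV have under 600 coding bases, and of shared protein-coding genes 94.6% with up to 300 and 80.2% with over 300 and up to 600 coding bases were at least 2-fold higher.

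In complex I, the nuclear subunits that carry the redox centres lay low, and the accessory subunits spread around the table's median. The 7 nuclear core genes had a median log2 ratio of 0.89, with 6 under the table's median (50.0% of all shared genes). Against genes of their own coding length class, 5 lay below the class median and 2 above. The median difference from the class was -0.18 for the core genes and -0.11 for the accessory genes. Ndufs8, an iron-sulfur subunit close to the ubiquinone site, was lowest at 0.74 in the authors' deposited table. Ndufv1, which binds NADH and its flavin, was listed by the authors' deposited table at 0.84, and the iron-sulfur subunit genes Ndufs1 and Ndufs7 at 0.88 and 0.89. Ndufs3 followed at 0.91, and Ndufv2 at 1.13 was the only core gene above the median of the authors' deposited table. These 7 genes are the nuclear part of the core that mammals share with bacteria.

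The 28 accessory genes of complex I had a median log2 ratio of 1.17, with 19 above the table's median (50.0% of all shared genes) and 8 (28.6%) above its upper quartile (25.0%). Against genes of their own coding length class, 9 lay above the class median and 19 below. The 9 accessory genes of the peripheral arm, which reaches into the matrix, had a median of 1.22, and the 19 of the membrane arm 1.12. Ndufc1 (1.69, membrane arm, 231 coding bases), Ndufa7 (1.57, peripheral arm, 342 coding bases) and Ndufa2 (1.48, peripheral arm, 300 coding bases) led the accessory genes in the authors' deposited table. At the other end of the authors' deposited table was Ndufa9 (0.69, 1134 coding bases), a peripheral arm subunit next to the ubiquinone pocket and the lowest of all nuclear members. Ndufc2, the membrane arm partner of Ndufc1, lay low as well at 0.82 in the authors' deposited table, although its coding sequence is short at 363 bases. The accessory genes thus spanned the whole range of complex I, and the core genes its lower part. Ndufa4, whose symbol puts it in complex I while structures show its protein in complex IV, was at 1.09 in the authors' deposited table, close to its median.

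Complex II had the lowest nuclear median, with 3 of 4 genes below the median of the table (50.0% of all shared genes). All 4 lay below the median of their own coding length class. Sdha, the flavoprotein that oxidises succinate, was at 0.87 and the iron-sulfur subunit gene Sdhb at 0.98, both from the authors' deposited table. The membrane anchor genes differed from each other in the authors' deposited table, with Sdhd at 0.94 and Sdhc at 1.20. Neither catalytic gene reached a 2-fold higher value, and of the anchors only Sdhc did.

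Complex III divided by size of subunit. The authors' deposited table had the 2 core proteins at the bottom, Uqcrc2 at 0.81 and Uqcrc1 at 0.90, followed by Uqcrfs1, the Rieske iron-sulfur protein, at 1.02. All 5 small subunits lay above, with a median of 1.38: Uqcr10 (1.60), Uqcrh, the hinge protein (1.46), Uqcr11 (1.38), Uqcrq (1.38) and Uqcrb (1.21) in the authors' deposited table. The groups did not overlap, and neither did their coding lengths: 825 to 1443 bases in the first 3 genes, 171 to 336 in the small subunits. Shared protein-coding genes also had lower medians with length, from 1.47 with up to 300 coding bases to 1.04 with over 1200. Against their own coding length class, all of the first 3 genes and 4 of the 5 small subunits lay below the class median.

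Complex IV had no nuclear gene under a 2-fold higher value, and 13 of its 14 nuclear genes lay above the median of the table (50.0% of all shared genes). Against their own coding length class, 5 of the 14 lay above the class median and 9 below. Cox6c (1.80), Cox7a1 (1.77) and Cox7c (1.64) were the highest in the authors' deposited table. The 10 genes of families 6, 7 and 8 had a median of 1.51 (range 1.20 to 1.80). Of these, 9 lay above the upper quartile of all shared genes (25.0% of them by construction). That quartile is 1.27, and shared protein-coding genes with up to 300 coding bases had a lower quartile of 1.30. Against their own length class, 5 of the 10 lay above the class median and 5 below. Families 4 and 5, the larger nuclear subunits, had a median of 1.15 over 4 genes. From the authors' deposited table, they ran from Cox4i1 at 1.01, the lowest nuclear gene of the complex, over Cox4i2 at 1.14 and Cox5b at 1.15 to Cox5a at 1.18.

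Several complex IV subunits have tissue isoforms, and these were listed side by side. Cox7a1, the heart and skeletal muscle isoform, was 0.38 higher on the log2 scale than Cox7a2, the isoform of most tissues (1.39 in the authors' deposited table). Cox7a2l, a relative that joins complexes III and IV into supercomplexes, was at 1.59 in the authors' deposited table. Cox4i2, an isoform known from lung and low oxygen, was 0.13 above the common Cox4i1. The testis isoform Cox6b2 (1.40) and the common Cox6b1 (1.44) differed by 0.037 in the authors' deposited table. Cox6a1 (1.20) and Cox8a (1.62), also from the authors' deposited table, had no second isoform analysed here. Ratios carry no level, so how much of each isoform the cells held is unknown.

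Complex V held the highest gene of the set, and its 17 nuclear genes ranged from 1.00 to 1.88. Atp5e (epsilon subunit of the F1 central stalk) was at 1.88 and Atp5l (subunit g) at 1.80, as the authors' deposited table gives them. The other small membrane subunit genes were Atp5j2 (subunit f, 1.51) and Atp5k (subunit e, 1.39) in the authors' deposited table. The rest of F1 was lower: Atp5b, the beta subunit, was the lowest nuclear gene of the complex at 1.00, with Atp5a1 (alpha) at 1.15, Atp5d (delta) at 1.07 and Atp5c1 (gamma) at 1.24 in the authors' deposited table. The 4 peripheral stalk genes lay close together, Atp5o at 1.01, Atp5j at 1.04, Atp5h at 1.08 and Atp5f1 at 1.19 in the authors' deposited table. Atp5g1, Atp5g2 and Atp5g3 encode the same mature c subunit of the rotor ring behind different import sequences. Atp5g2 and Atp5g3 were both at 1.06 in the authors' deposited table, and Atp5g1 was 0.35 above Atp5g2. Atp5s (1.16) and Atp5sl (1.39) meet the symbol rule without being constant subunits of the synthase, and both were above the median of the authors' deposited table.

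**Figure D2:**
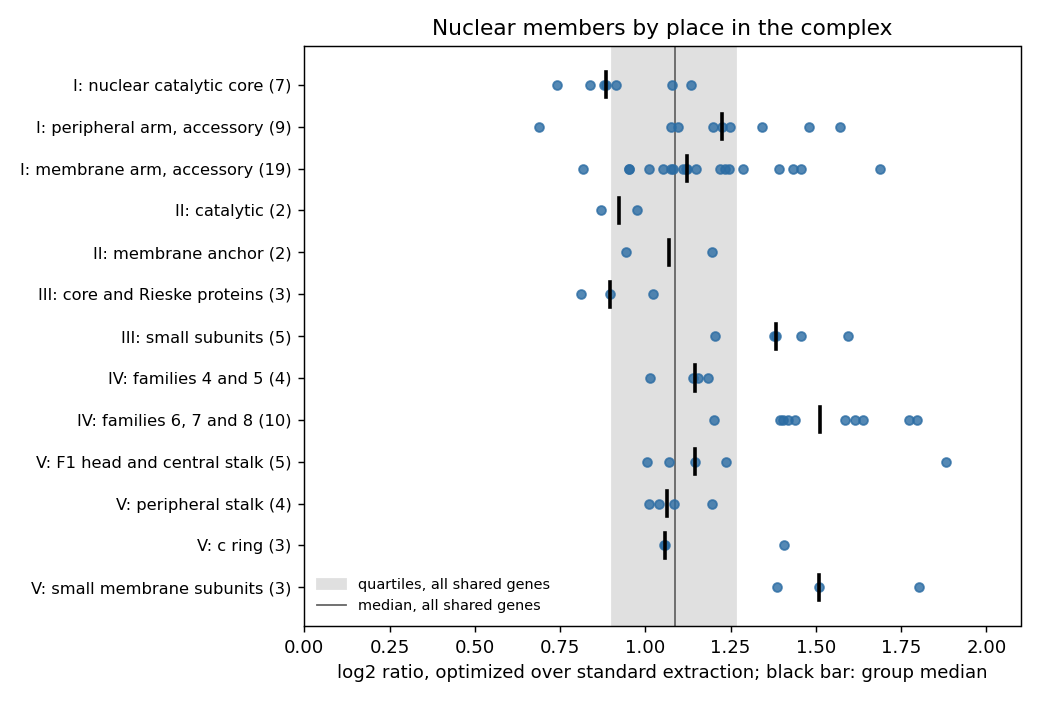
Log2 ratio (x axis, optimized over standard extraction) of nuclear members by their place in the complex (y axis, number of genes in brackets). Points are genes, black bars group medians, the grey line and band the median and quartiles of all shared genes. The core groups of complexes I (median 0.89) and III lie at the left, and the small subunits of complexes III (1.38), IV (families 6 to 8, 1.51) and V at the right.

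Across the complexes, the 12 nuclear genes of catalytic or redox subunits (the complex I core, Sdha, Sdhb, Uqcrfs1, Atp5a1 and Atp5b) had a median log2 ratio of 0.94, with 10 below the median of the table. The other 67 nuclear genes had a median of 1.21, with 19 below, against 50.0% of all shared genes. This grouping was made after the values were seen, and the 2 groups also differ in coding length, with medians of 1121 and 390 bases. Against their own coding length class, 9 of the 12 and 44 of the 67 genes lay below, with median differences of -0.14 and -0.062.

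Among the nuclear members, genes with short coding sequences had the higher ratios. Over the 79 nuclear members, Spearman's rank correlation between ratio and coding length (of 1 representative transcript per gene) was -0.70, against -0.20 over 12608 shared protein-coding genes with a coding length. The rank correlation was -0.54 within complex I (36 genes), -0.86 within complex III (8), -0.88 within complex IV (14) and -0.45 within complex V (17). Over the 9 mitochondrially encoded members it went the other way, at 0.48. The rank correlation with transcript length was -0.48, and with the GC content of the coding sequence 0.077, over the 79 genes. For transcript length it was only -0.081 over 12620 shared protein-coding genes. Within complexes I, III, IV and V the rank correlation with transcript length was -0.41, -0.83, -0.37 and -0.11. These are descriptions across genes, which are not independent replicates and share their libraries.

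The same division by coding length ran through the whole table. Shared protein-coding genes with up to 300 coding bases had a median of 1.47 (241 genes), those over 300 and up to 600 bases 1.25, those over 600 and up to 1200 bases 1.09 and longer ones 1.04. The nuclear members of the same classes had medians of 1.45 (20 genes), 1.14 (37), 1.01 (13) and 0.90 (9). In every class the members' median was thus below that of all genes of the class, and 53 of the 79 nuclear members lay below their own class median. Set against their own length class, the nuclear members had a median difference of -0.073 on the log2 scale, where against the whole table it was 0.069, so the sign of their position depends on whether length is taken into account. For complex I the median difference from the class was -0.13, for complex II -0.14, for complex III -0.080, for complex IV -0.051 and for complex V 0.033.

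Some nuclear members stood apart from genes of their own coding length class. Atp5l was 0.56 above its class median on the log2 scale, Atp5e 0.41, Cox7a2l 0.34, Ndufa7 0.32 and Cox6c 0.32. Ndufc2 lay furthest below at -0.43, with Ndufa9 at -0.40, Ndufa4 at -0.38 and Ndufs8 at -0.35. The genes of these 2 lists come from complexes I, IV and V above, and from complex I alone by symbol below, and were picked after their values were seen. Ndufv3 (1.22 in the authors' deposited table) was placed by a representative transcript of 1407 coding bases, and its class would change with a shorter isoform.

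**Figure D3:**
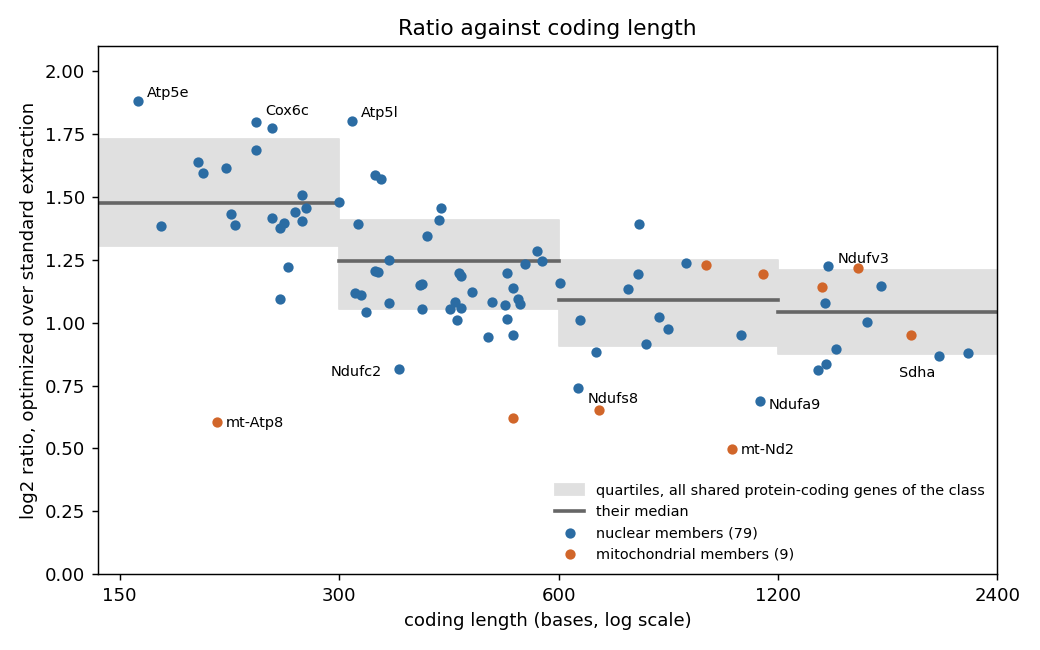
Log2 ratio (y axis, optimized over standard extraction) against coding length in bases (x axis, log scale). Points are nuclear (blue) and mitochondrially encoded (orange) members with a ratio; grey lines and bands are the median and quartiles of all shared protein-coding genes in 4 coding length classes. Nuclear members follow the downward steps from 1.47 to 1.04, and mt-Atp8, mt-Nd6, mt-Atp6 and mt-Nd2 lie far under their classes.

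Protein-coding genes of the mitochondrial genome formed a group near the median of the table and a group well under it, with mt-Nd5 between them. The genome is read from both strands into long precursors that are cut at tRNA genes, so its messages share their origin and are not independent values. Of its 13 annotated protein-coding genes 9 had a ratio, 2 were listed for the standard extraction alone, and mt-Co3 and mt-Nd4l were not analysed here. Highest in the authors' deposited table, mt-Nd1 (complex I, chrM:2751-3707) was at 1.23, mt-Co1 (the catalytic subunit of complex IV, chrM:5328-6872) at 1.22, mt-Cytb (cytochrome b of complex III, chrM:14145-15288) at 1.19 and mt-Nd4 (complex I, chrM:10167-11544) at 1.14. These 4 lay above the median of the table, close to the nuclear median of 1.16.

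The other messages were lower. In the authors' deposited table, mt-Nd5 (chrM:11742-13565) was at 0.95, mt-Atp6 (subunit a of complex V, chrM:7927-8607) at 0.65, mt-Nd6 (chrM:13552-14070, light strand) at 0.62, mt-Atp8 (complex V, chrM:7766-7969) at 0.61 and mt-Nd2 (chrM:3914-4951) at 0.50. Genes of the same complex were thus in both groups, since mt-Nd1 and mt-Nd2 of complex I were the highest and the lowest of the 9. The lowest nuclear member, Ndufa9 at 0.69 in the authors' deposited table, was above 4 of these genes.

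mt-Atp8 and mt-Atp6 lie on 1 message with overlapping reading frames, and their log2 ratios differed by 0.048. The overlap of 43 bases (chrM:7927-7969, plus strand, mm10) is shown in capitals with 20 bases on each side, because reads from it belong to both genes.
mt-Atp8 and mt-Atp6 junction: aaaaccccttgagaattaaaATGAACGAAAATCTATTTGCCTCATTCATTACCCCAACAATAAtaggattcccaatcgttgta

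**Figure D4:**
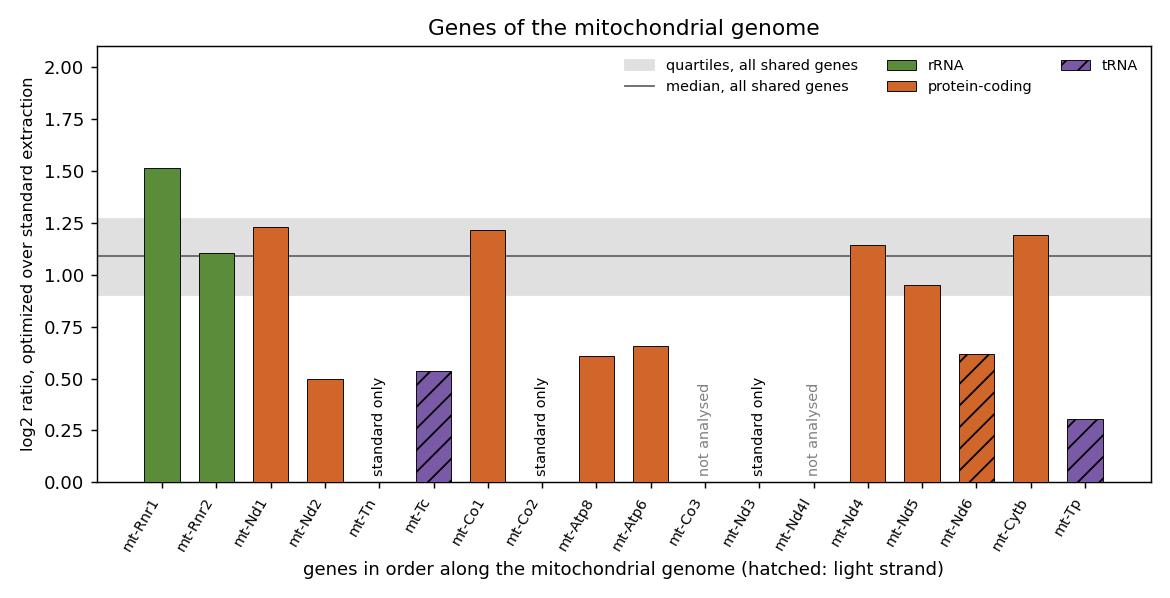
Log2 ratio (y axis, optimized over standard extraction) of genes of the mitochondrial genome in their order along it (x axis); bars are orange for protein-coding, green for rRNA and purple for tRNA genes, hatched for the light strand. The grey line and band are the median and quartiles of all shared genes. mt-Nd1, mt-Co1, mt-Nd4 and mt-Cytb reach the median, the hatched genes all stay at 0.62 or below, and mt-Co2, mt-Nd3 and mt-Tn were listed for the standard extraction alone.

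Other genes of the mitochondrial genome ranged from 0.30 to 1.51. The small ribosomal RNA gene mt-Rnr1 was at 1.51 and the large one, mt-Rnr2, at 1.10 in the authors' deposited table. The light strand genes with a ratio were mt-Nd6 and the tRNA genes mt-Tc (0.54) and mt-Tp (0.30) in the authors' deposited table, and the fourth light strand gene listed, mt-Tn, was listed for the standard extraction alone. Among the heavy strand coding genes the range was 0.50 to 1.23, so the strands overlapped. No source used here gives the strand setting of the counting.

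mt-Co2 (subunit II of complex IV, which takes electrons from cytochrome c, chrM:7013-7696) and mt-Nd3 (complex I, chrM:9459-9806) were the 2 members listed for the standard extraction alone. Of all listed protein-coding genes 0.510% were in that table. No member was listed for the optimized extraction alone, against 2.01% of listed protein-coding genes. No source used here gives the rule by which a gene counted as detected, and the listing is not read as absence.

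Both genes have near-identical copies in the nuclear genome. Gm28661 on chromosome 1 (24614885 to 24615565) was identical to mt-Co2 over all 681 aligned bases, and Gm28438 (chromosome 1, 24612775 to 24613119) differed from mt-Nd3 at 1 of 345 bases, T3C, counted from the first base of mt-Nd3. The first 33 bases of both are shown with that base in capitals (mm10, sense strand of the gene).
mt-Nd3: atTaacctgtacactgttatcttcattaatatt
Gm28438: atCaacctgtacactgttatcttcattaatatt

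Shared sequence was measured as the share of a gene's 50-base windows that also occur in annotated transcripts of other genes. It was 100% for mt-Co2 and 98.0% for mt-Nd3, but also 99.5% for mt-Atp6, which was listed in both extractions. It was 62.2% for mt-Nd4, 51.1% for mt-Co1, at most 8.19% for mt-Nd2 and mt-Nd5, and 0% for mt-Nd1, mt-Nd6, mt-Atp8 and mt-Cytb. Both the near-median and the low group thus held genes with and without such shared windows. The search covered annotated transcripts only, so 0% does not mean that a gene has no nuclear copy. The copy of mt-Atp6, Gm10925 (chromosome 1, 24613974 to 24614651), lies beside that of mt-Co2, and mt-Atp8 starts between these 2 genes. Gm13340, a pseudogene on chromosome 2 that holds 27.5% of the windows of mt-Co1, was at 1.22 in the authors' deposited table, as was mt-Co1 itself. No source used here gives how reads that fit several places were counted, and the part of these copies in the listing was not tested.

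Among the nuclear members, 17 of 79 shared over 20% of their windows with other genes, and their ratios are uncertain to that extent. The highest shares were 87.4% for Atp5g2 and 84.9% for Atp5l, the second highest gene of the set, whose windows occur in 14 other genes. Atp5e, Cox7a1 and Cox8a shared none, and Cox6c 13.9%. Over the nuclear members, Spearman's rank correlation between ratio and shared windows was 0.058 (79 genes). Another annotated gene overlapped 12 nuclear members on the same strand.

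Genes that build the chain or serve it were described from lists drawn up by function. Of 49 assembly factor genes, 33 lay above the median of the table and 40 were at least 2-fold higher, against 63.0% of all shared genes and 80.2% of those with over 300 and up to 600 coding bases, where the median assembly factor lies (591 bases). Their median log2 ratio was 1.16, as for the nuclear subunits. The authors' deposited table had Cox17, a small copper chaperone of complex IV, at 2.18 and Coa4 at 1.78 as the highest, and Taco1, an activator of mt-Co1 translation, at 0.69 and Ndufaf6, a complex I assembly factor, at 0.80 as the lowest. Cox17, with 192 coding bases, alone among them lay at least 2-fold above the median of the table.

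A further 4 subunit genes escape the symbol rule. In the authors' deposited table, Usmg5, a small subunit of complex V, was at 2.03, above every member, and Atp5mpl, another small subunit of complex V, at 1.51. Usmg5 and Atp5mpl each have 177 coding bases. Ndufab1, the acyl carrier protein in complex I, was at 1.34 and Cyc1, cytochrome c1 of complex III, at 0.99 in the authors' deposited table. Cyc1 thus lay with the Rieske and core proteins of its complex (0.81 to 1.02) and under the small subunits.

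The 20 genes of electron carriers and of coenzyme Q synthesis had a median of 1.06, with 10 above and 10 below the median of the table. In the authors' deposited table, Coq2 (1.42) and Coq4 (1.39), which act in coenzyme Q synthesis, were highest, and Gpd2 (0.72) and Sqor (0.76), enzymes that feed electrons to ubiquinone, lowest. The 33 genes that maintain and express mitochondrial DNA had a median of 1.05, with 14 above. Their extremes in the authors' deposited table were partner proteins: Slirp, a small RNA-binding protein that stabilises mitochondrial messages, was highest at 1.72, and Lrpprc, the large protein it binds, was lowest at 0.67. Slirp and Lrpprc also had the shortest and the longest coding sequence of the list, 339 and 4179 bases. Tbrg4 (1.52) and Polrmt, the mitochondrial RNA polymerase (0.70), came next in the authors' deposited table.

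Promoters of respiratory chain genes are known to bind nuclear respiratory factor 1, whose recognition sequence holds the letters CGCANGCG. These letters were searched on both strands of the 300-base window around the gene start (RefSeq, GRCm38.p6). They were present for 26 of 67 nuclear members with a promoter entry (38.8%) and for 9.22% of 27025 genes. Those 27025 are all genes with a promoter entry, whether listed in these data or not. The share among the shared genes alone was not computed. A longer form, with G before and C after these letters, was searched first and replaced by the shorter one after its result was seen. It was present for 17 of the 67 (25.4%) and for 5.19% of the same 27025 genes. Of the 26, 10 were in complex I, 2 in complex II, 3 in complex III, 1 in complex IV and 10 in complex V. Their log2 ratios had a median of 1.08 (range 0.87 to 1.80), against 1.19 (0.69 to 1.88) in the members without the letters, and the ranges overlapped. A match of letters is a description and no site. The members with the letters and the highest and lowest ratio, Atp5l and Sdha, are shown with the matches in capitals (Atp5l, chr9:44920693-44920992, minus strand; Sdha, chr13:74350191-74350490, minus strand).
Atp5l: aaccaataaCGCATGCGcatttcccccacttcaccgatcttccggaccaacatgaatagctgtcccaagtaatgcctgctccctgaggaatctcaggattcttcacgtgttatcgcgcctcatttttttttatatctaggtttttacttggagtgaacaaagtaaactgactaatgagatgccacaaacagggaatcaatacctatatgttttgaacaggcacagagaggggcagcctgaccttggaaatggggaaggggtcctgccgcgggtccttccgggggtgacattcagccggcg
Sdha: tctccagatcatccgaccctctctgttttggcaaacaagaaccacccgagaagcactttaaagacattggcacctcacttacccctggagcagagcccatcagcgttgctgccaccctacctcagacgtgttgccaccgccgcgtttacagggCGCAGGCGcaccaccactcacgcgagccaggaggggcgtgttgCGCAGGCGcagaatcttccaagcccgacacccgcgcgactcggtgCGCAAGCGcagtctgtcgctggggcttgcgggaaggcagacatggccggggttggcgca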

How the data were processed

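The submitters' processing notes name TopHat2, featureCounts and build mm10. Software versions, annotation, the scaling of the libraries and the detection rule were not found in the sources used here. A stranded kit for total RNA was used, per the labels' protocols. Each deposited value is the authors' log2 fold change of a gene, with the optimized extraction over the standard one, per the file headers. Tests need values of single libraries, not analysed here, so counts, medians and quartiles are given. Members and lists were chosen with earlier results of these data known.

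Identifiers were matched to GENCODE M21 (13273 of 13278 shared genes, 90 of 90 members). Coding lengths, stop codon included, came from 1 transcript per gene (APPRIS principal, then longest). Windows of 50 bases were searched on both strands of all annotated transcripts. Medians and correlations were tested on simulated data.

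Genes were named by rule: all mitochondrial members, those listed for 1 extraction, the 3 highest and lowest nuclear members of each complex, isoforms, and the 2 highest and lowest of each further list. Whole role groups were also named, and 1 member is not reported here by name. Unmatched columns of per-sample values numbered 0. Software was Python 3.11.15 with pandas 2.3.3, numpy 2.4.6, matplotlib 3.10.9 and scipy 1.17.1.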

Additional observations from a re-analysis of the deposited data

How the results depend on the processing

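Of 79 recomputed values, 62 kept their sign and moved by at most 0.1 on the log2 scale (0.2 for rank correlations, 1.5 times for counts). Differences of medians from the table changed sign against protein-coding genes of the same coding length class, an alternative chosen after seeing the data: complex I to -0.13, complex III to -0.080, complex IV to -0.051 and the nuclear members to -0.073, and nuclear minus mitochondrial members moved from 0.21 to 0.021. Without members that share over 20% of their windows, also chosen after seeing the data, the mitochondrial members lay at -0.30 and nuclear minus mitochondrial members at 0.41. With up to 600 coding bases, complex II lay at -0.017, the mitochondrial members at -0.47 (2 genes with a ratio) and nuclear minus mitochondrial members at 0.62. Without members overlapped on the same strand, by however few bases, the mitochondrial members lay at -0.017 (mt-Co1, mt-Cytb, mt-Nd5 and mt-Nd6 alone). By the mean, complex V lay at 0.17 and nuclear minus mitochondrial members at 0.31. Values at least 3-fold higher belonged to 9 members, and 0 were 2-fold higher after centring, against 69. Spearman's rank correlation with coding length was -0.45 in complex V alone. The cause of these moves was not tested beyond the construction of each alternative. No paired analysis was possible because the tables hold 1 ratio per gene and no values per library; leaving out each replicate was not run for the same reason. Depth is unknown.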
